A study of Mus musculus with 29 samples.

Results

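Peaks of the glucocorticoid receptor mutant GRdim whose strongest ChIP-exo borders lay 24 to 26 bp apart were examined in mouse liver. Within 100 bp of the centre of each GRdim ChIP-seq peak, the border with the most tags was taken on each strand in the exo library of the same condition, and the position of the plus-strand border was subtracted from that of the minus-strand border. Of 13831 peaks in the 3 GRdim lists, 7867 had a border on both strands and 406 of those (5.16%) had a distance of 24 to 26 bp. The 406 peaks merged into 361 regions, since some regions were chosen in more than 1 list. All 6 GR lists, wild type (WT) included, held 38186 peaks. The distance and the tags of the own library chose these peaks, so both are given as a description. Own tags, border midpoints and GR scores of the own list, where set beside those of other peaks, are description too. The comparisons of shares given with intervals of a difference use libraries that had no part in the choice.

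The glucocorticoid receptor (GR) is a nuclear receptor that binds corticosterone and synthetic glucocorticoids and, in liver, controls genes of glucose and lipid metabolism. It is known to bind palindromic elements as a dimer and other sites as a monomer, and the GRdim mutation is known to impair contact between the receptors of a dimer. C/EBPβ is a leucine zipper transcription factor abundant in hepatocytes, where many GR sites lie at sites it occupies. In ChIP-exo an exonuclease trims precipitated DNA up to the crosslinked protein, so a border on each strand marks the edges of a protected stretch.

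GR was precipitated with the antibodies PA1-511A and sc-1004 from livers of GRdim males and of their GR+/+ littermates, called WT here, for both ChIP-seq and ChIP-exo. C/EBPβ was precipitated with sc-150 from WT livers alone, for ChIP-seq. All animals were 12 weeks old, were back-crossed to BALB/c and lived on a 12 h light cycle. Tissue was taken untreated at 6 am, when the light phase began, untreated at 6 pm, when the dark phase began, or at 6 am from mice that had carried prednisolone pellets under the skin for 24 h (12 mg/kg, a synthetic glucocorticoid). The replicates, 2 for each list, had been pooled, which leaves 1 measurement for a condition and no spread from which a p-value could be had. The 95% intervals cover the counting of peaks only (Wilson for a share, Newcombe for a difference of shares). The exo libraries held 31.6 to 45.2 M tags with 14391 to 35658 listed borders in GRdim, and 43.1 to 55.7 M tags with 49189 to 66573 listed borders in WT. The GRdim library of 6 am was the smallest, and a border missing there can be one that was not detectable at its depth. Liver tissue holds several cell types, and fewer bound cells cannot be told apart from less binding per cell.

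The 24 to 26 bp peaks numbered 73 of 1382 peaks with both borders at 6 am (5.28%), 173 of 3894 at 6 pm (4.44%) and 160 of 2591 after prednisolone (6.18%). Between 40 and 60 bp, a mean of 2.42%, 2.68% and 2.55% of the same peaks fell in each 3 bp, so the chosen distances were 2.18, 1.66 and 2.42 times as frequent. In the WT peak lists with WT borders, the same 3 bp held 4.23%, 2.82% and 3.58% of pairs, which was 2.16, 1.04 and 1.78 times the WT share per 3 bp between 40 and 60 bp. At 6 am the excess was thus about as large in WT as in GRdim. GRdim pairs were also frequent at 10 to 12 bp, with 6.08% at 6 am, 3.65% at 6 pm and 5.60% after prednisolone. At single distances of 24, 25 and 26 bp the counts were 24, 28 and 21 peaks at 6 am, 64, 56 and 53 at 6 pm, and 48, 57 and 55 after prednisolone. Just outside, 21 peaks had 23 bp and 12 had 27 bp at 6 am. At 6 pm these counts were 58 and 56, so the distances on either side of the limits were as frequent as those inside. After prednisolone 17 peaks had 23 bp and 33 had 27 bp. The median GR score just outside and just inside was 2.93 at 23 bp and 3.58 at 24 bp at 6 am, 3.67 and 3.79 at 6 pm, and 2.79 and 2.83 after prednisolone. At the upper limit, from 26 to 27 bp, it was 3.80 and 4.00, 3.34 and 3.69, and 2.83 and 2.75.

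**Figure D1:**
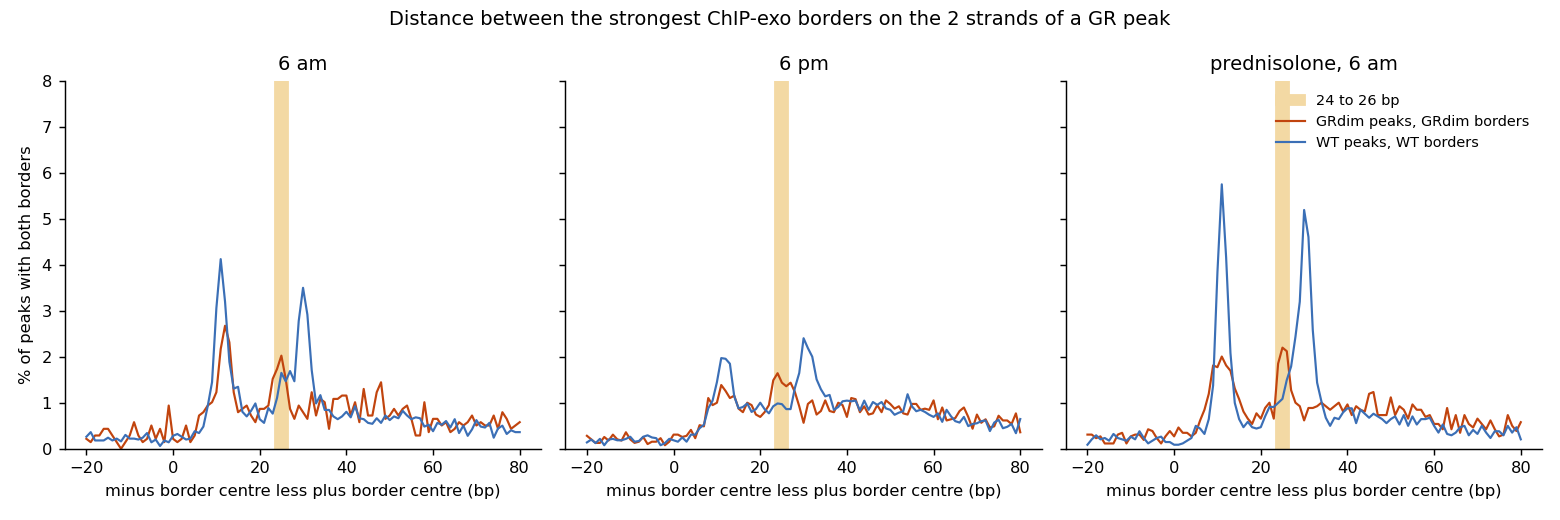
Percent of peaks with both borders (y axis) at each border distance in bp (x axis) in the 3 conditions, for GRdim peaks with GRdim borders (orange) and WT peaks with WT borders (blue), 1 pooled library per line. The orange line is high in the shaded band of 24 to 26 bp, which held 5.28%, 4.44% and 6.18% of GRdim pairs and chose the peaks. It is also high outside the band, at 10 to 12 bp, which held 6.08%, 3.65% and 5.60% of GRdim pairs. The largest blue peaks lie outside the band.

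The borders that chose the peaks were thinly covered. The plus-strand border held 7 to 52 tags at 6 am, with a median of 17, and the minus-strand border 7 to 46 with a median of 15. At 6 pm the medians were 18 tags on the plus and 17 on the minus strand, and after prednisolone 18 on each. Both borders held 20 tags or more in 14 of 73, 44 of 173 and 45 of 160 chosen peaks. Over all peaks with both borders this held for 179 of 1382, 662 of 3894 and 445 of 2591. The stronger border held a median of 1.33, 1.25 and 1.29 times the tags of the weaker one. GRdim peaks with other distances had medians of 14 tags per strand at 6 am, 15 at 6 pm and 16 after prednisolone, so the chosen peaks came from slightly stronger borders. The midpoint of the 2 borders lay a median of 17, 20 and 19.8 bp from the centre of the ChIP-seq peak, against 19.5, 19 and 19 bp at other distances. Regions with chosen peaks were found on 20 chromosomes, from 1 region on X to 31 on chromosome 1.

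In WT livers of the same condition, borders 24 to 26 bp apart were found more often at the chosen peaks than at GRdim peaks with other distances taken as 1 group. They were present at 14 of 73 peaks at 6 am (19.2%, 95% interval 11.8 to 29.7; background over all peaks with both borders 4.78%), at 9 of 173 at 6 pm (5.20%, 2.76 to 9.59; background 1.93%) and at 17 of 160 after prednisolone (10.6%, 6.74 to 16.4; background 3.24%). The shares at other distances were 3.97%, 1.77% and 2.76%. The differences were 15.2 points (7.71 to 25.7), 3.43 points (0.94 to 7.83) and 7.87 points (3.92 to 13.6), each with an interval above 0. Of these 40 peaks, 36 had both WT borders within 2 bp of the GRdim ones, namely 13 of 14, 8 of 9 and 15 of 17. In most chosen peaks the WT library did not show the distance. The difference in share from the 10 to 12 bp peaks was 15.6 points (5.82 to 26.3), 3.09 (-1.52 to 7.69) and 8.56 (3.10 to 14.45). From the 29 to 31 bp peaks it was 19.2 points (6.40 to 29.7), 5.20 (0.65 to 9.59) and 7.45 (-1.16 to 13.6). The interval thus included 0 at 6 pm in the first comparison and after prednisolone in the second. The neighbouring distances were not all low: after prednisolone GRdim peaks with borders 27 to 29 bp apart had WT borders 24 to 26 bp apart at 10 of 83 (12.0%, 6.68 to 20.8), above the share of the chosen peaks, and those with 21 to 23 bp at 6.06%. Single distances just outside the limits gave 4 of 17 peaks at 23 bp and 6 of 26 at 28 bp in that condition. At 6 am the steps of 21 to 23 and 27 to 29 bp had 8.70% and 5.88%, and at 6 pm 2.38% and 2.14%.

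A wider view of the same place counted any listed WT border within 2 bp of the GRdim one, whether or not it was the strongest. Such a border was listed on both strands at 49.3% of the chosen peaks at 6 am (background 22.5%), 17.9% at 6 pm (10.2%) and 31.3% after prednisolone (12.1%). At other distances the shares were 21.0%, 9.86% and 10.8%, and the differences were 28.3 points (16.9 to 39.7), 8.06 (2.96 to 14.5) and 20.4 (13.6 to 28.1). GRdim peaks with borders 10 to 12 bp apart had such borders at 53.6%, 23.9% and 23.4% of peaks, and the differences of the chosen peaks from them were -4.26 points (-19.4 to 11.2), -6.03 (-15.2 to 2.93) and 7.80 (-2.26 to 17.5), all with intervals that include 0. Against peaks with borders 29 to 31 bp apart the differences were 28.1 points (8.16 to 43.5), -0.83 (-11.1 to 8.32) and 15.4 (2.56 to 25.7). The slightly higher tag counts of the chosen peaks move with this result and their part in it was not tested.

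**Figure D2:**
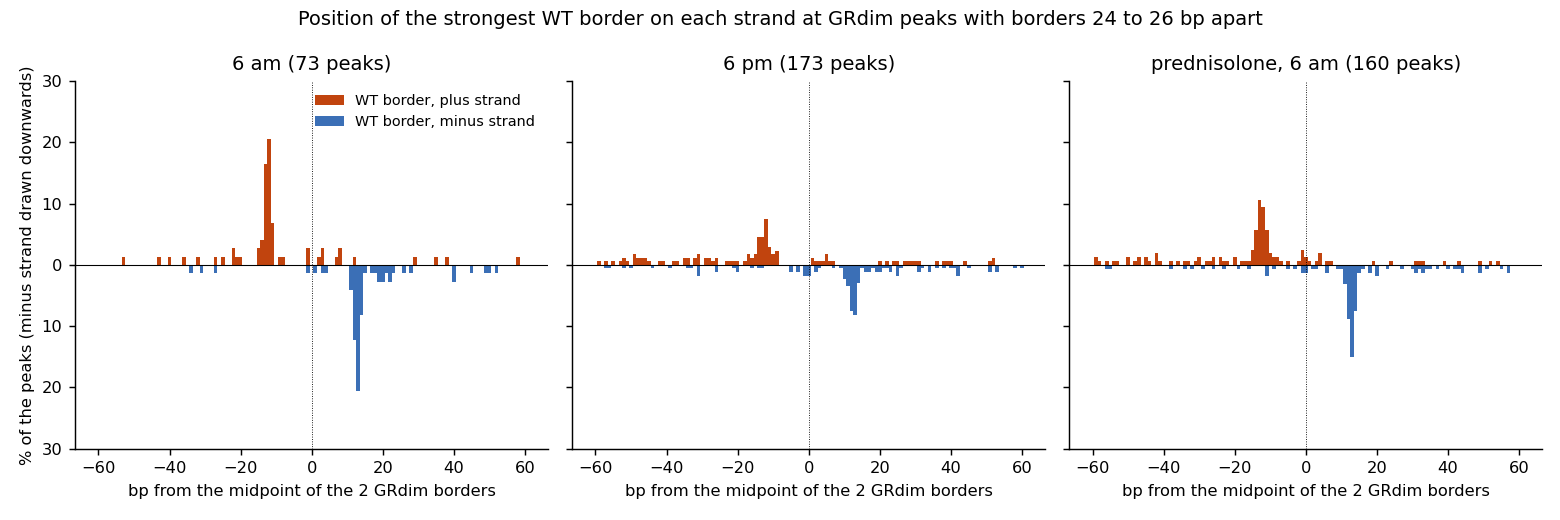
Position of the strongest WT border of the same condition, in bp from the midpoint of the 2 GRdim borders (x axis), as a percent of the chosen peaks (y axis, plus strand upwards in orange, minus strand downwards in blue). The WT borders gather at the places of the GRdim borders, about 12 bp to either side, at 6 am and after prednisolone, and are more scattered at 6 pm.

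The strongest WT borders at the chosen peaks took a wide range of distances. Both strands had a WT border at 72 of 73, 122 of 173 and 124 of 160 peaks (backgrounds 95.2%, 75.3% and 72.2%), and the median WT distance there was 27, 33 and 27.5 bp. The strongest WT borders were both within 2 bp of the GRdim ones at 20, 11 and 27 peaks. At 30, 53 and 57 peaks this held for 1 strand, and at 23, 109 and 76 for neither. Among the 121 peaks with 1 shared border and a WT border on both strands, the WT pair was wider than the GRdim pair at 85 and narrower at 36. A pair this short leaves more room in the window for a wider pair than for a narrower one. The counts of shared borders and of wider pairs were taken at the chosen peaks only, so no conclusion is drawn from the split. The plot of WT border positions shows the shared places as the tall bars on each strand.

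Distances of 29 to 31 bp, a separate maximum of the WT profile, were not detectably more frequent in WT at the chosen peaks. They were found at 5 peaks at 6 am (6.85%, background 6.3%), 9 at 6 pm (5.20%, background 3.7%) and 7 after prednisolone (4.38%, background 4.09%). The differences from other distances were 0.58 points (-3.56 to 8.87), 1.57 (-0.95 to 6.00) and 0.30 (-2.10 to 4.74). In 9 of these 21 peaks 1 of the 2 WT borders lay within 2 bp of the GRdim border, in 12 neither did, and in none did both. The last count was nearly fixed in advance, since the 2 ranges of distance leave little room for both borders to be shared. The 9 were not compared with other peaks. WT distances of 27 or 28 bp, just above the chosen range, were found at 18 of the 406 chosen peaks, 14 of them with both borders within 2 bp. Distances of 22 or 23 bp, just below the range, were found at 13. Both were counted at the chosen peaks only, so no conclusion is drawn from them.

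Finding the own distance again in WT was not confined to 24 to 26 bp. GRdim peaks with borders 10 to 12 bp apart had that distance in WT at 29.8% of 84 peaks at 6 am, 14.1% of 142 at 6 pm and 14.5% of 145 after prednisolone. Among the remaining GRdim peaks 8.71%, 3.28% and 5.11% had it. For GRdim peaks with borders 29 to 31 bp apart the shares were 21.2% of 33, 4.17% of 96 and 6.35% of 63, against 5.93%, 3.69% and 4.04%. Only at 6 am did the interval of this last difference lie above 0 (15.3 points, 4.65 to 31.9). Whether these classes differ from the 24 to 26 bp peaks in how often they are found again was not tested.

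The distance also returned in the GRdim libraries of the other conditions. Peaks chosen at 6 am had borders 24 to 26 bp apart in the GRdim library of 6 pm at 19.2% and in that of prednisolone at 30.1%, where the backgrounds were 5.21% and 6.37%. Peaks chosen at 6 pm had them at 8.67% in the 6 am library and 15.0% in the prednisolone library (backgrounds 1.77% and 4.67%). Those chosen after prednisolone had them at 10.6% in the 6 am library and 13.8% in the 6 pm library (backgrounds 2.39% and 4.4%). Against peaks with other distances, the 6 differences ran from 7.22 to 25.1 points, and each interval lay above 0. These are 3 pairs of conditions, each seen from both sides, so the 6 are not independent. Against peaks with borders 10 to 12 bp apart the 6 intervals lay above 0 too. Against those 29 to 31 bp apart they did so except for the 6 am peaks in the 6 pm library (13.1 points, -2.32 to 24.5). Peaks chosen in both lists numbered 14 for 6 am and 6 pm, 17 for 6 am and prednisolone, and 21 for 6 pm and prednisolone. Listed borders within 2 bp of both own borders, strongest or not, were present in the 6 pm and prednisolone libraries at 42.5% and 47.9% of the 6 am peaks (backgrounds 15.6% and 16.4%). For the 6 pm peaks these shares were 16.8% in the 6 am and 27.7% in the prednisolone library (4.44% and 9.58%), and for the prednisolone peaks 25.6% in the 6 am and 36.3% in the 6 pm library (8.22% and 14.4%). Peaks with borders 10 to 12 bp apart had their own borders listed there at 33.3% and 45.2%, 16.9% and 26.1%, and 17.2% and 26.2%, and all 6 differences from them, -0.14 to 10.0 points, had intervals that include 0. From peaks with borders 29 to 31 bp apart the differences ran from 8.43 to 32.8 points. Their intervals lay above 0, except for the 6 pm peaks in the 6 am library (-0.29 to 15.9). In WT libraries of another condition the shares were 16.4% for the 6 am peaks after prednisolone (background 3.98%), 11.6% and 7.51% for the 6 pm peaks at 6 am and after prednisolone (3.75% and 2.67%), and 10.0% for the prednisolone peaks at 6 am (3.4%). They were lowest in the WT library of 6 pm for all 3 sets of peaks, at 6.85%, 5.20% and 5.63%, where the backgrounds were also lowest (2.6%, 1.93% and 2.47%).

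**Figure D3:**
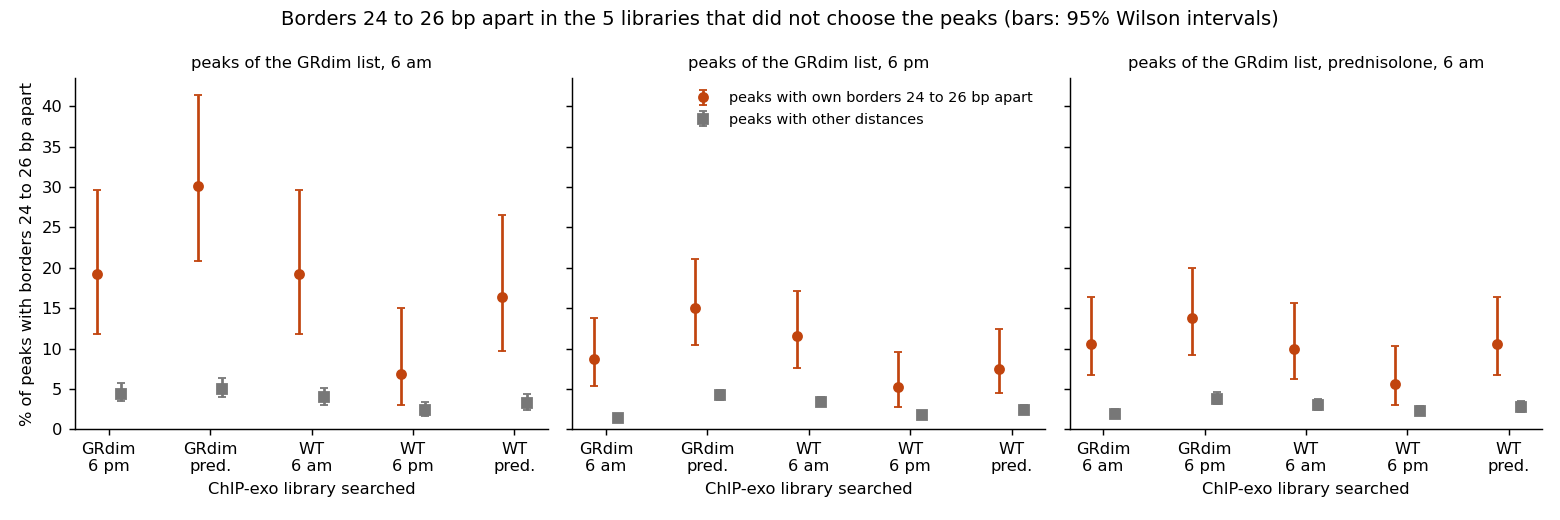
Percent of peaks with borders 24 to 26 bp apart (y axis) in each of the 5 exo libraries that did not choose them (x axis), for the peaks of each GRdim list with own borders 24 to 26 bp apart (orange circles) and with other distances (grey squares), with 95% Wilson intervals over peaks. All orange points lie above the grey ones, from 5.20% to 30.1% against 1.45% to 5.04%.

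Most regions showed the distance in a single library. Of 361 merged regions, 323 were chosen in 1 list, 31 in 2 and 7 in all 3. In 36 of the 38 regions chosen more than once, the midpoints of the border pairs agreed within 2 bp. Taking the highest-scoring chosen peak of each region and searching the other 5 libraries around its centre, 259 regions (71.7%) had the distance in no other library. A further 75 regions (20.8%) had it in at least 1 WT library, and 1 region had it in all 6. Any 1 of the other libraries showed the distance at 1.77% to 6.37% of all peaks with both borders. Regions with other distances were not counted over 5 libraries in this way, so no conclusion is drawn from these shares.

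The region with the distance in all 6 libraries lay at chr15:88749874-88750073 (mm9, positions counted from 1). Its borders were 26, 24 and 25 bp apart in GRdim at 6 am, at 6 pm and after prednisolone, and 26, 25 and 25 bp apart in WT. The plus-strand border held 15, 31 and 34 tags in GRdim and 59, 67 and 72 in WT, and the minus-strand border 27, 29 and 26 in GRdim and 44, 63 and 66 in WT. These are tags as counted, from libraries of unequal size. The C/EBPβ peaks there scored 14.6, 12.9 and 12.0, against list medians of 3.62, 3.71 and 3.63.

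The other 6 regions chosen in all 3 GRdim lists differed in what WT showed. At chr16:23294425-23294624 the WT distance was 24 bp at 6 am and at 6 pm and 49 bp after prednisolone, where the WT minus-strand border at the GRdim place was not listed. At chr6:113378108-113378307 WT had -19, 31 and 27 bp, the negative sign meaning that the minus-strand border lay to the left of the plus-strand one. At chr10:127705472-127705671 WT had 49, 48 and 71 bp, although borders at both GRdim places were listed in each WT library, with 33 to 39 tags on the plus strand and 44 to 61 on the minus strand. The strongest WT plus-strand border there lay at another place, with 44 to 53 tags.

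The region chr13:96625569-96625768 had the highest tag counts in WT among these 7. Its GRdim distances were 25, 25 and 26 bp with 17, 36 and 32 tags on the plus strand and 26, 68 and 40 on the minus strand. In WT the distance was 45 bp at 6 am, 46 bp at 6 pm and 26 bp after prednisolone. At the GRdim places WT held 218, 170 and 304 tags on the plus strand and 336, 239 and 314 on the minus strand. Its ChIP-seq scores were 3.07, 5.34 and 3.05 in the GRdim lists and 11.0, 12.4 and 13.2 in the WT lists, while its C/EBPβ scores of 3.42, 4.12 and 3.52 lay near the medians of their lists.

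At the last 2 of these regions WT borders were weak. At chr5:93150763-93150962 WT had 30, 29 and 98 bp with 14 to 23 tags on each strand, and GRdim had 12 to 40 tags per border with distances of 25, 26 and 26 bp. At chr16:30796268-30796467 all 3 GRdim distances were 26 bp with 14 to 19 tags, while WT had 28 bp at 6 am and lacked a listed border on 1 strand at 6 pm and after prednisolone. After prednisolone both GRdim borders of the region on chromosome 5, with 40 and 34 tags, held more tags than the strongest WT ones, with 17 and 23, in the smaller of the 2 libraries.

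**Figure D4:**
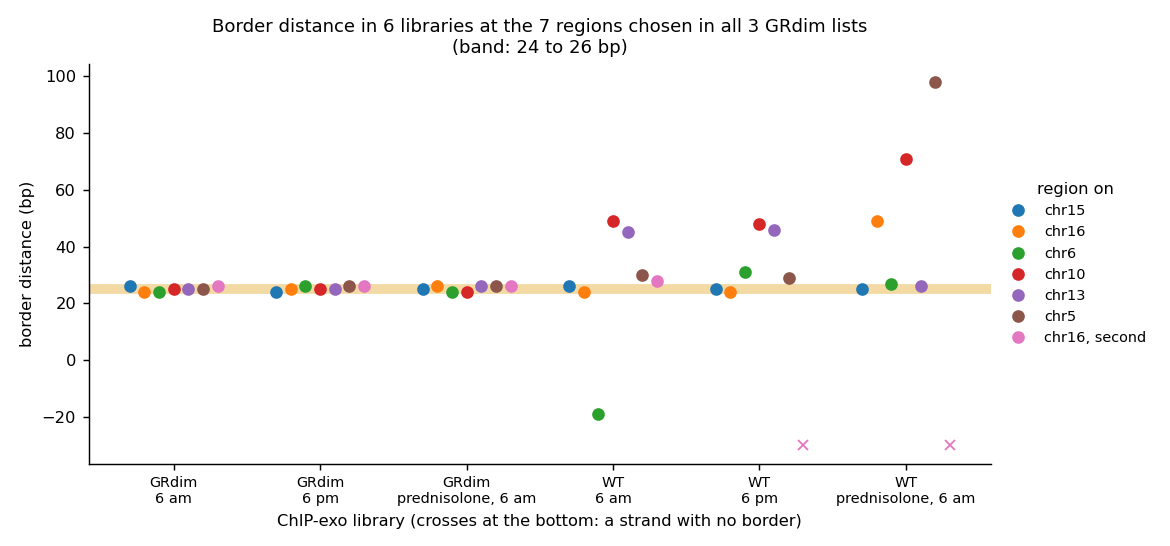
Distance between the strongest borders in bp (y axis) in the 3 GRdim and 3 WT exo libraries (x axis) at the 7 regions chosen in all 3 GRdim lists, 1 colour per region, with crosses where a strand had no border. GRdim points lie between 24 and 26 bp by the choice of regions, while WT points run from -19 to 98 bp, and only the region on chromosome 15 stays in the band in all libraries.

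The strongest border pairs by tags included peaks high in their lists. The peak chr4:150081357-150081556 ranked 4 of 3183 at 6 am with a score of 10.9, and its borders 24 bp apart held 39 and 46 tags. WT had 27 bp with 45 and 69 tags at the same places at 6 am, 25 bp after prednisolone, and 66 bp at 6 pm with no border at either place. The other GRdim libraries had 59 bp at 6 pm and 128 bp after prednisolone there. The peak chr12:16625345-16625544 held 49 and 105 tags at 6 pm, 24 bp apart, and ranked 30 of 7440. In all 3 WT libraries the distance there was 106 bp, with the minus-strand border at the GRdim place (434, 558 and 367 tags) and the plus-strand one at another place, where WT listed no plus-strand border within 2 bp of the GRdim one. A region on chromosome 5 was among the strongest in 2 lists, at chr5:77561026-77561225 with 40 and 47 tags at 6 pm and at chr5:77560986-77561185 with 41 and 46 tags after prednisolone. The strong pair chr9:24316410-24316609, with 39 and 48 tags after prednisolone, had 38 bp in the WT prednisolone library, 24 bp in WT at 6 am and 26 bp in WT at 6 pm.

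C/EBPβ peaks, measured in WT livers, covered most of the chosen peaks, as they did the other GRdim peaks. They overlapped by at least 1 bp at 69 of 73 peaks at 6 am (94.5%, 86.7 to 97.9; background 89.7%), 165 of 173 at 6 pm (95.4%, 91.1 to 97.6; background 93%) and 131 of 160 after prednisolone (81.9%, 75.2 to 87.1; background 79.4%). Other distances had 89.4%, 92.9% and 79.2%, and the differences of 5.14 points (-2.79 to 8.92), 2.50 (-1.81 to 4.92) and 2.65 (-4.23 to 8.11) all had intervals that include 0. Against GRdim peaks with borders 29 to 31 bp apart the differences were 9.67 points (-1.85 to 25.8), 2.67 (-2.97 to 10.0) and -7.01 (-15.8 to 4.34), and against those 10 to 12 bp apart 8.81 (-0.97 to 18.4), 3.83 (-1.70 to 10.0) and 3.94 (-5.03 to 13.0). Where the C/EBPβ centre had to lie within 100 bp of the GR centre, the difference from other distances at 6 pm was 5.05 points (0.15 to 8.17), an interval above 0, while those at 6 am and after prednisolone still had intervals that include 0.

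**Figure D5:**
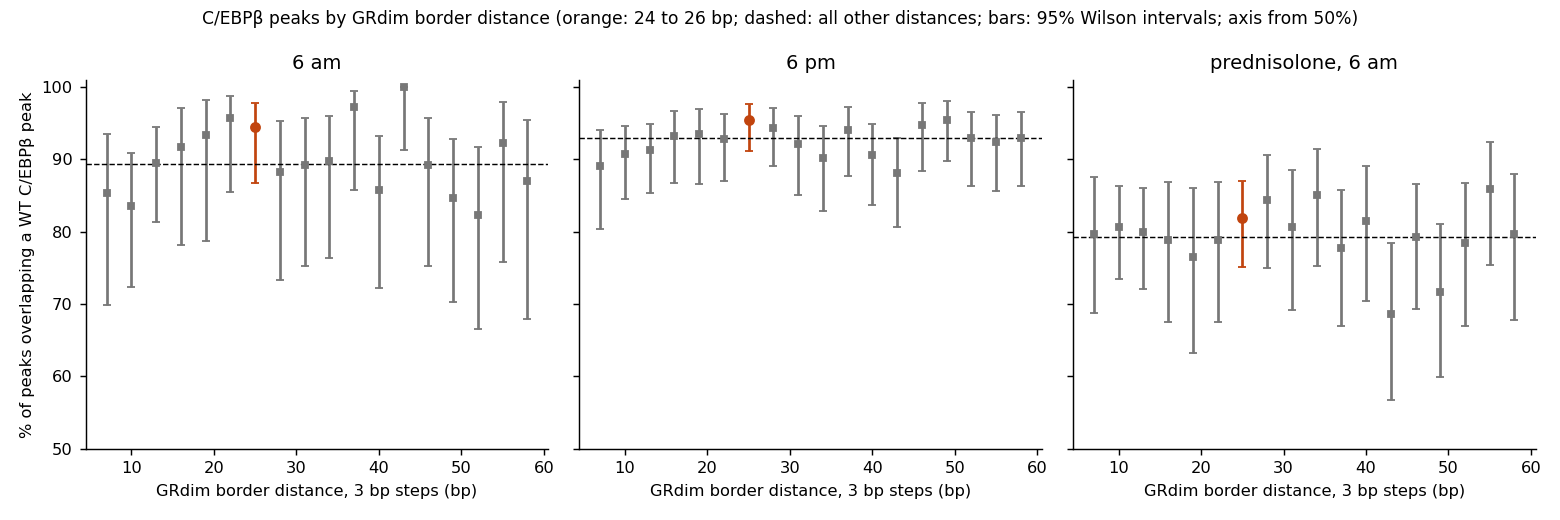
Percent of GRdim peaks that overlap a WT C/EBPβ peak of the same condition (y axis, drawn from 50%) by GRdim border distance in 3 bp steps (x axis), with 95% Wilson intervals over peaks. The 24 to 26 bp step (orange) stands at 94.5%, 95.4% and 81.9%, with the level of all other distances (dashed: 89.4%, 92.9% and 79.2%) inside its interval in each condition.

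The peaks chosen after prednisolone were also set against the C/EBPβ lists of the other conditions. Both differences from other distances given next lie inside the interval found with the prednisolone list (-4.23 to 8.11). Whether the lists differ in this was not tested. Of these 160 peaks 90.6% lay at a C/EBPβ peak of 6 am (background 84.9%) and 96.9% at one of 6 pm (background 91.6%). The differences from other distances were 6.05 points (0.36 to 9.96) and 5.64 points (1.52 to 7.78), with intervals above 0. Against peaks with borders 29 to 31 bp apart they were 0.15 points (-7.35 to 10.5) and 1.64 points (-3.43 to 10.2), and against those 10 to 12 bp apart 6.49 (-0.99 to 14.2) and 8.60 (2.76 to 15.1), so the interval lay above 0 in 1 of these 4. Of the same 160 peaks, 16 (10.0%) were in the C/EBPβ list of 6 am and not in that of prednisolone, and 2 (1.25%) the reverse. Peaks with other distances leaned the same way, with 8.31% and 2.96%. The C/EBPβ list of 6 pm was the longest, with 26226 peaks against 21644 and 21941. In any of the 3 lists 97.5% were present (background 93.2%), 4.53 points above other distances (0.66 to 6.41) and 0.67 points above the 29 to 31 bp peaks (-3.72 to 8.51). Of the peaks chosen at 6 am, 95.9% lay at a C/EBPβ peak of 6 pm, 83.6% at one of prednisolone and 95.9% at one of any list (backgrounds 93.1%, 78.2% and 94.1%). Of those chosen at 6 pm, 85.5% lay at one of 6 am, 73.4% at one of prednisolone and 96.5% at one of any list (backgrounds 84.6%, 75.2% and 94%). For both of these sets the differences from other distances, from -1.87 to 5.64 points, had intervals that include 0.

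The strength and position of the C/EBPβ peaks were also close to those at other distances. The median percentile of the C/EBPβ score within its own list was 76.2 at the chosen peaks of 6 am against 79.6 at other distances, 77.8 against 81.1 at 6 pm, and 80.5 against 79.9 after prednisolone. The C/EBPβ centre lay a median of 31, 30 and 37.5 bp from the midpoint of the borders, against 34, 29 and 34 bp. The C/EBPβ scores at the chosen peaks ran from 2.41 to 14.9 at 6 am, from 2.04 to 22.1 at 6 pm and from 2.01 to 14.2 after prednisolone, in lists whose highest scores were 22.8, 22.1 and 19.1.

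Of all GRdim peaks with both borders, 94.1%, 94% and 93.2% in the 3 conditions lay at a C/EBPβ peak of any list. Among the 361 chosen regions, 13 had no C/EBPβ peak in any of the 3 lists. The highest-scoring was chr7:106308090-106308289, chosen at 6 pm with a GR score of 4.99 and with 18 and 25 tags 24 bp apart. Its GRdim distance after prednisolone was 38 bp, and WT had 75 and 69 bp at 6 am and 6 pm. The next, chr11:98724928-98725127, had 25 bp in GRdim at 6 am with 18 and 15 tags. The plus-strand border there returned in the GRdim prednisolone library with 25 tags, and no minus-strand border was listed in that library. At chr10:79794971-79795170, 26 bp apart at 6 pm, and at chr11:112872263-112872462, 26 bp apart at 6 am, no other library showed 24 to 26 bp. All 4 regions were present in at least 1 WT GR list, with scores of 2.17 to 5.26.

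GR scores of the chosen peaks began near the lowest of their lists and stopped short of the highest, which were 14.9, 15.7 and 13.6. The score is the authors' own and was compared only within a list. It ran from 2.03 to 10.9 with a median of 3.69 at 6 am, from 2.00 to 10.1 with a median of 3.44 at 6 pm, and from 2.01 to 7.29 with a median of 2.83 after prednisolone. Peaks with other distances had medians of 3.44, 3.62 and 2.75, so the chosen ones were higher at 6 am and after prednisolone and lower at 6 pm. When the peaks with both borders were divided by score into 5 groups of equal size, the chosen ones made up 4.33%, 5.07%, 5.05%, 7.25% and 4.71% from the lowest to the highest group at 6 am. At 6 pm these shares were 4.36%, 5.13%, 3.34%, 4.36% and 5.01%, and after prednisolone 6.36%, 5.02%, 7.34%, 4.63% and 7.53%. None of the 3 lists showed a steady rise or fall with score. In the highest group, 13 of 13, 39 of 39 and 34 of 39 chosen peaks overlapped C/EBPβ in the matching list. The other peaks of that group did so in 92.0%, 97.2% and 84.8% of cases, close to the chosen ones.

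Almost every chosen peak of the untreated livers was also listed in WT. At 6 am all 73 were in the WT list (background 94.9%), and at 6 pm 172 of 173 were (99.4%, background 97.4%). After prednisolone 110 of 160 were (68.8%, background 69.3%). The differences from other distances were 5.42 points (0.30 to 6.79), 2.14 (-0.53 to 2.88) and -0.56 (-8.33 to 6.36). Among the higher-scoring 50% of peaks the difference at 6 am was 2.61 points (-3.75 to 3.80), so its interval no longer lay above 0, and with WT centres within 100 bp that at 6 pm was 3.32 points (0.63 to 4.14), above 0. Of the 50 peaks chosen after prednisolone and not in the WT prednisolone list, 4 (8.0%, 3.15 to 18.8) had WT borders 24 to 26 bp apart, as did 13 of the 110 listed ones (11.8%, 7.04 to 19.2). In any of the 3 WT lists, 73, 172 and 156 of the chosen peaks were present (backgrounds 99.2%, 98.1% and 95.9%).

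The GRdim lists of the other conditions held most of the chosen peaks. Those of 6 am were listed in GRdim at 6 pm in 97.3% and after prednisolone in 86.3% of cases (backgrounds 96.2% and 78.1%). Those of 6 pm were listed at 6 am in 64.2% and after prednisolone in 68.2% (backgrounds 57.2% and 60.2%), and those of prednisolone at 6 am in 120 of 160 cases and at 6 pm in 157 of 160 (98.1%; backgrounds 69.2% and 95%). All 6 shares stood above those of other distances, by 1.08 to 8.69 points, and the interval lay above 0 for 1 of them, the 6 pm peaks in the prednisolone list (8.39 points, 0.95 to 15.1).

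The 5 chosen peaks absent from all WT lists had scores of 3.68 or less. The highest-scoring was chr1:81947558-81947757, chosen after prednisolone with a score of 3.68 and with 21 and 27 tags 25 bp apart. Its only C/EBPβ peak was in the prednisolone list, with a score of 3.12, and no WT library had a border at either place. At chr12:7957201-7957400, chosen at 6 pm with a score of 2.53 and with 9 and 12 tags, no C/EBPβ peak was listed. The WT prednisolone library had a border with 15 tags at its minus-strand place. The peaks chr13:56454803-56455002 and chr10:93667835-93668034, both chosen after prednisolone, had scores of 2.49 and 2.45. C/EBPβ scored 9.62 after prednisolone at the first of them, and 5.95 and 5.87 at 6 am and 6 pm. At the second, the WT prednisolone library had a border with 6 tags at the GRdim plus-strand place.

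Where the WT borders of the same condition were 29 to 31 bp apart, the 4 highest-scoring peaks had a WT border at the GRdim plus-strand place and none at the GRdim minus-strand place. At chr8:96901559-96901758, chosen at 6 pm, GRdim had 39 and 56 tags 24 bp apart and WT had 160 and 173 tags 31 bp apart, with 140 WT tags at the GRdim plus-strand place. At chr8:47961400-47961599, chosen at 6 am, GRdim had 31 and 24 tags 26 bp apart and WT 142 and 105 tags 29 bp apart. At chr11:121188161-121188360, also chosen at 6 am, GRdim had 32 and 31 tags 25 bp apart, and WT had 73 and 70 tags 31 bp apart at 6 am and 27 bp with both GRdim places occupied at 6 pm. The region on chromosome 5 described above, at chr5:93150763-93150962, was the fourth, with 29 bp in WT at 6 pm and 19 WT tags at the GRdim plus-strand place. Over all 21 such peaks, as given above, 9 had the strongest WT border at the GRdim place on 1 strand.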

How the data were processed

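ChIP-seq and ChIP-exo of GR came from GRdim and WT livers under 3 conditions, and ChIP-seq of C/EBPβ from WT livers. Each list pools 2 replicates, per the labels. Inputs (12 samples) and RNA polymerase II (2 samples) were not analysed here. Bowtie, HOMER and mm9 are named per the submitters' processing notes, with roles, versions and peak threshold not given in the sources used here.

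ChIP-seq lists hold peaks of 200 bp with the authors' score, of unstated unit, which never lay below 2.00, so a weak peak can be missing. A ChIP-exo list gives stranded borders 10 bp wide and for each, per the file headers, the authors' RPM value, a deposited tag count and a deposited height signal. Library sizes are the count divided by the RPM.

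From these, the strongest borders within 100 bp were paired (distance between centres) and peaks overlapped by at least 1 bp. Background percentages are over all peaks of a list with both borders. The members and lists were chosen with earlier results of these data known. Named regions are those chosen in all 3 GRdim lists (at most 8), the 2 per list with the most tags on the weaker border, and up to 4 each, by score, with no WT peak, with no C/EBPβ peak, or with WT borders 29 to 31 bp apart. Alternatives were a window of 60 bp, at least 20 tags, height in place of tags, the higher-scoring 50% of each list, peak centres within 100 bp and a search around the midpoint of the borders. One alternative was added after seeing the data. The code was tested on simulated data. No genome or annotation of mm9 was used here, so regions carry no gene name or sequence. The work used matplotlib 3.10.9, scipy 1.17.1, pandas 2.3.3, numpy 2.4.6 and Python 3.11.15.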

Additional observations from a re-analysis of the deposited data

Results flagged for a closer look

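The share of 24 to 26 bp peaks that were listed in WT stood above that of other distances by 5.42 points at 6 am and 2.14 points at 6 pm, and the difference was -0.56 points after prednisolone. The direction differed between the conditions, each condition was 1 pool, and the difference between conditions was not tested. The intervals at 6 pm and after prednisolone include 0.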

How the results depend on the processing

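No paired analysis was possible because each list is 1 pool of 2 replicates and the numbered input samples were not used. The number of 24 to 26 bp peaks moved by over 1.5 times where at least 20 tags were required on both borders. It fell to 14 at 6 am, 44 at 6 pm and 45 after prednisolone, out of 179, 662 and 445 peaks that met this minimum. With that minimum the difference in WT borders at 6 pm was 9.26 points. In the other GRdim libraries it was 18.7 and 33.1 points for the peaks of 6 pm (6 am and prednisolone library) and 17.5 and 22.7 points for those of prednisolone (6 am and 6 pm library). With peaks limited to those with both borders in the library searched, an alternative chosen after seeing the data, the differences in the 6 am library were 15.4 points for the peaks of 6 pm and 16.5 points for those of prednisolone. With C/EBPβ centres within 100 bp, the difference in C/EBPβ share at 6 pm was 5.05 points, with an interval of 0.15 to 8.17 that lies above 0. With WT peak centres within 100 bp, the difference in listing in WT was 7.11 points at 6 am and 3.32 at 6 pm (0.63 to 4.14), and in the higher-scoring 50% it was 2.61 at 6 am (-3.75 to 3.80), no longer above 0. In that higher-scoring 50% the difference in WT borders at 6 am was 8.26 points, and with the strongest border by height that at 6 pm was 6.53. The causes of these moves were not tested. All 36 alternative differences in other GRdim libraries and all 18 in WT borders were positive. They are not independent, since the settings share peaks and each pair of GRdim conditions enters from both sides. In WT borders 17 of the 18 intervals lay above 0, the exception being 6 am with at least 20 tags, where 14 peaks were left. For C/EBPβ, 14 of 15 alternative intervals include 0. Depth limits the borders: the median weaker border held 13 to 16 tags.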
